A study of Mus musculus with 6 samples.

Results

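The hemoglobin and erythroid genes are 9 of the 55487 genes in the expression table of newborn mouse molar epithelium, and they were taken by gene name as a measure of the blood left in the dissected tissue. They comprise 4 adult globin genes (*Hba-a1*, *Hba-a2*, *Hbb-bs* and *Hbb-bt*), 3 embryonic globin genes (*Hba-x*, *Hbb-y* and *Hbb-bh1*), the heme synthesis enzyme *Alas2* and the red cell anion exchanger *Slc4a1*. RNA-seq was performed on dental epithelium of the mandibular first molar (M1) at PN2.5, in 3 libraries from Wnt10aflox/flox mice (control) and 3 libraries from K14-Cre;Wnt10aflox/flox mice (cKO). Both groups carry the floxed *Wnt10a* alleles, and in the cKO a Cre recombinase under the keratin 14 promoter deletes the gene in epithelial cells. Each library is a pool of epithelium, of 4 molars according to the design text and of a larger number according to the methods of the study, from mice of either sex. The sources used here do not state whether blood was flushed from the tissue. The authors gave each gene's level as TPM, its share of all transcripts after correction for transcript length, so levels of different genes can be compared. These values do not carry the sequencing depth, which leaves it unknown, and counting errors are therefore not given.

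In a red cell precursor, nearly all protein synthesis is turned to hemoglobin, a tetramer of alpha and beta globin chains that each hold a heme. Embryonic red cells from the yolk sac use embryonic chains first, and red cells made in the fetal liver and later in the bone marrow use the adult chains. A red cell of this adult type loses its nucleus before it enters the blood, but the reticulocyte, its young circulating form, still carries globin mRNA. Genes that are needed earlier, in the nucleated erythroblast, include those of the membrane skeleton and the transcription factors GATA1 and KLF1.

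The labels were checked first. *Wnt10a*, the deleted gene, was at 56.0, 51.2 and 57.9 TPM in the control libraries and at 22.7, 21.8 and 32.2 TPM in the cKO libraries, without overlap. The keratin gene *Krt14* was between 2190 and 2773 TPM in all 6 libraries and the enamel matrix gene *Amelx* between 85454 and 203538 TPM, so the epithelial markers were present. The mesenchymal collagen gene *Col1a1* was also high, between 1795 and 3127 TPM, so the pools were not epithelium alone.

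The 4 adult globins had the highest levels of the 9 genes by far. In the GENCODE annotation of GRCm38 the alpha genes lie in 1 cluster on the forward strand of chromosome 11 (*Hba-x* from 32276400 to 32278116, *Hba-a1* from 32283511 to 32284465, *Hba-a2* from 32296489 to 32297298). The beta genes lie in a cluster on the reverse strand of chromosome 7 (*Hbb-bt* from 103812524 to 103813996, *Hbb-bs* from 103826534 to 103828096, *Hbb-bh1* from 103841637 to 103843164, *Hbb-y* from 103851749 to 103853216). The 120 bases before the start of transcription in RefSeq are shown for 3 adult and 2 embryonic globins and for *Alas2*. The adult genes were expressed in every library, whereas the embryonic genes were at or near 0. RefSeq places some starts inside the GENCODE gene, so that the stretches of *Hba-a1*, *Hbb-bs* and *Hba-x* lie within the gene bounds given above. Capitals mark 4 motifs on either strand: GATAA (bound by GATA1), CACCC (bound by KLF1), CCAAT (the CCAAT box) and TATAA (the TATA box). The sequences are those of RefSeq on GRCm38.p6, from chr11:32283552-32283671 (forward), chr7:103827929-103828048 (reverse), chr7:103813924-103814043 (reverse), chr11:32276480-32276599 (forward), chr7:103853208-103853327 (reverse) and chrX:150547297-150547416 (forward).
Hba-a1: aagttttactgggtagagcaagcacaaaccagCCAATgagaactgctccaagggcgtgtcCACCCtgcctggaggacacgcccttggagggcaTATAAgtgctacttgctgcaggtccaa
Hbb-bs: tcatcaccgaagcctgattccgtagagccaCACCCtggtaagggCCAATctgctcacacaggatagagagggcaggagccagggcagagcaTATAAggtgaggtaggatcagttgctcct
Hbb-bt: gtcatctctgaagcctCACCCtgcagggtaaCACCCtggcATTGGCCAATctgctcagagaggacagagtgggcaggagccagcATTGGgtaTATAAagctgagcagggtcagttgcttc
Hba-x: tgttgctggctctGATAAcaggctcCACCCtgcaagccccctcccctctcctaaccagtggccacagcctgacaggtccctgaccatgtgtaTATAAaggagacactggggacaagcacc
Hbb-y: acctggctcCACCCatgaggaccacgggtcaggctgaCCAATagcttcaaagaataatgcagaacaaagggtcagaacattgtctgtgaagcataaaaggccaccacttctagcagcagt
Alas2: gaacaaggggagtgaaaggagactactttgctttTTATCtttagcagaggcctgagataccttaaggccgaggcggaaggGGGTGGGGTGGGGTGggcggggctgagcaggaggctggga

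All 4 adult globin genes held each of the 4 motifs within 250 bases before the start, with GATAA farther upstream than the stretch shown. In the same 250 bases, *Hbb-y* held 3 of the 4 (no TATAA), as did *Hba-x* and *Alas2* (no CCAAT). Among all 32851 promoters in the RefSeq table, 22.6% held GATAA in a window of that length, 52.0% CACCC, 33.8% CCAAT and 22.8% TATAA, and 0.968% held all 4. A match of letters is not a binding site. GATAA and TATAA both end in ATAA, so matches of one and the other on the same strand cannot start at the same base. The promoter of *Hba-a2* was identical to that of *Hba-a1* over the 297 bases that the 2 windows share, and is therefore not shown. The copies are also alike in their transcripts: of all stretches of 100 bases in the *Hba-a2* transcript, 74.5% occur in *Hba-a1*, and of those in *Hbb-bs*, 62.6% occur in *Hbb-bt*. Reads from these stretches can be shared between the copies by the authors' counting, so the split within each pair is uncertain and the sums of alpha and of beta genes depend on it less.

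Among the alpha chain genes, *Hba-a2* was at 698, 439 and 814 TPM in the control libraries and at 409, 431 and 474 TPM in the cKO libraries. Control replicates 1 and 3 were above the other 4 libraries, and control replicate 2 lay within the cKO range. *Hba-a1*, the other adult alpha gene, was at 307, 197 and 294 TPM in the control and at 213, 216 and 200 TPM in the cKO, with the same 2 control libraries on top and control replicate 2 below all others. The mean of *Hba-a2* in the cKO was 32.7% below that of the control, and that of *Hba-a1* 21.1% below. From limma on log2(TPM + 1), the log2 fold change was -0.53 (standard error 0.24, unadjusted p = 0.0613) for *Hba-a2* and -0.31 (standard error 0.20, unadjusted p = 0.152) for *Hba-a1*.

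Among the beta chain genes, *Hbb-bs*, which encodes the adult s chain, was at 625, 579 and 718 TPM in the control and at 501, 523 and 404 TPM in the cKO. The groups did not overlap, with all cKO libraries lower (exact permutation, two-sided, p = 0.1, the lowest value attainable with 3 libraries a group). Of all tested genes, 6.13% were separated in this direction. *Hbb-bt*, which encodes the adult t chain, was at 125, 106 and 146 TPM in the control and at 102, 108 and 78.5 TPM in the cKO, and control replicate 2 again lay within the cKO range. The log2 fold change from limma was -0.43 (standard error 0.16, unadjusted p = 0.0323) for *Hbb-bs* and -0.38 (standard error 0.19, unadjusted p = 0.0864) for *Hbb-bt*. In the control, *Hba-a2* (650 ± 192 TPM, SD, n = 3) and *Hbb-bs* (641 ± 70.7 TPM, SD, n = 3) were at levels that did not differ beyond their spread. *Hba-a1* (266 ± 60.3 TPM, SD, n = 3) and *Hbb-bt* (126 ± 20.03 TPM, SD, n = 3) followed in that order.

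The embryonic chains were at or near 0. *Hbb-y* and *Hbb-bh1*, the embryonic beta-like genes, were listed at 0 in all 6 libraries. *Hba-x*, the embryonic alpha-like gene, was listed at 0 in 5 libraries and at 0.08 TPM in control replicate 3, which was 0.00406% of the globin TPM of that library. Nearly all globin TPM thus came from the adult genes in both groups.

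*Alas2*, the erythroid form of the first enzyme of heme synthesis, was at 5.06, 3.82 and 6.48 TPM in the control and at 2.61, 3.67 and 3.87 TPM in the cKO. Control replicates 1 and 3 were again the highest libraries, and control replicate 2 lay just below the highest cKO library. Its log2 fold change from limma was -0.47 (standard error 0.25, unadjusted p = 0.106). For each 100 TPM of globin, *Alas2* was between 0.213 and 0.335 TPM in the 6 libraries (control against cKO, p = 0.7 by two-sided exact permutation).

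*Slc4a1*, which encodes the anion exchanger band 3 of the red cell membrane, did not have this order. It was at 0.43, 1.81 and 0.37 TPM in the control and at 0.15, 1.39 and 0.16 TPM in the cKO, so that replicate 2 of each group was above the other 4 libraries without separation of control and cKO (p = 0.5 by two-sided exact permutation). With a mean of 0.718 TPM it was below the filter of 1 TPM and was not tested with limma. Its cKO mean was 34.9% below the control mean, and its cKO library was the lower one in 3 of 3 replicate numbers. In the plot of levels by library, all 6 genes have a lower mean in the cKO, and *Slc4a1* also splits by replicate 2.

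**Figure D1:**
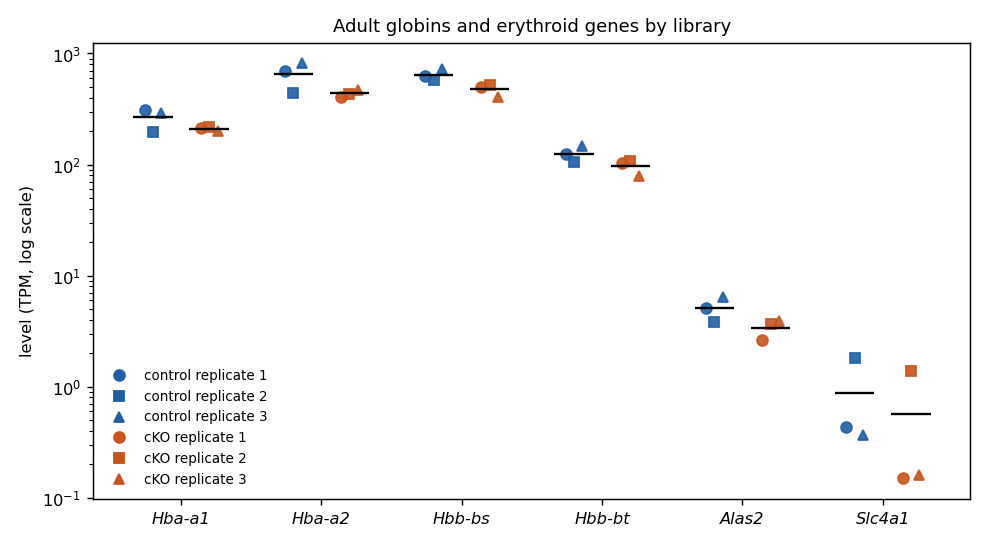
Level of the 4 adult globins, Alas2 and Slc4a1 in each library (TPM, log axis), with the replicate number as the marker shape and black bars for the mean of each group (n = 3). The 3 cKO libraries of Hbb-bs, at 404 to 523 TPM, are below the 3 control libraries at 579 to 718 TPM, and the squares of Slc4a1 stand above the other markers. The embryonic globins, at or near 0, are not drawn.

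Of the 9 genes, 5 passed the filter and were tested, the 4 adult globins and *Alas2*, and all 5 had a negative log2 fold change, as did 60.3% of all 13719 tested genes, whose median was -0.07. The methods of the study call a gene when its means differ by over 20% of the control mean at a p under 0.05. They do not say whether that p is adjusted, and the unadjusted p of limma was used here. The RNA-seq methods name no test, so these calls are not those of the study. By these criteria 1 of the 5 (*Hbb-bs*) was called, against 4.02% of all tested genes of which 2.47% were lower and 1.55% higher in cKO. With Benjamini-Hochberg adjustment over all tested genes, limma called 0 of the 5 (adjusted p = 1.00 for each), against 0.0146% of all tested genes. The call of *Hbb-bs* held without either library of replicate 2 (unadjusted p from limma of 0.0299 without that of the control and 0.0324 without that of the cKO) and was lost without any of the other 4. Its unadjusted p from limma was then 0.0713 without control replicate 1, 0.086 without control replicate 3, 0.0527 without cKO replicate 1 and 0.097 without cKO replicate 3. In a fit blocked on replicate, 2 of the 5 (*Hba-a2* and *Hbb-bs*) met the criteria, against 9.59% of all genes called in that fit and 6.61% called as lower. Without control replicate 2, 4 of the 5 genes met the criteria, all except *Alas2*, against 2.69% of all genes called in that fit and 1.44% called as lower, and *Hba-a2* had a log2 fold change of -0.79 (unadjusted p = 0.00238 from limma) and *Hba-a1* one of -0.52 (unadjusted p = 0.0068 from limma). *Hba-a1* was at -0.20 without control replicate 1, and *Hba-a2* at -0.34 without control replicate 3. *Hbb-bt* was at -0.24 without cKO replicate 3, and *Alas2* at -0.31 without control replicate 3.

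Transcript length bears on these genes, since the adult globin transcripts have only 554 to 703 bases. Over 539 tested protein-coding genes with fewer than 1000 bases, the median log2 fold change was 0.20. The adult globins went the other way. The trend with length was not shared by all control libraries. Over protein-coding genes, Spearman's correlation of length with deviation from the gene's mean was 0.34, 0.52 and -0.26 in the control libraries. In the cKO libraries it was -0.32, -0.06 and -0.28, so control replicate 3 had the sign of the cKO. With a correction of each library for the length and GC content of transcripts, the changes on the log2 scale were -0.70 for *Hba-a2*, -0.63 for *Hbb-bs*, -0.57 for *Hbb-bt*, -0.52 for *Alas2* and -0.47 for *Hba-a1*. All 5 then met the criteria, with unadjusted p from limma between 0.00281 and 0.0354, against 3.11% of all genes called under that correction and 2.06% called as lower. The adjusted p of each was still 1.00.

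**Figure D2:**
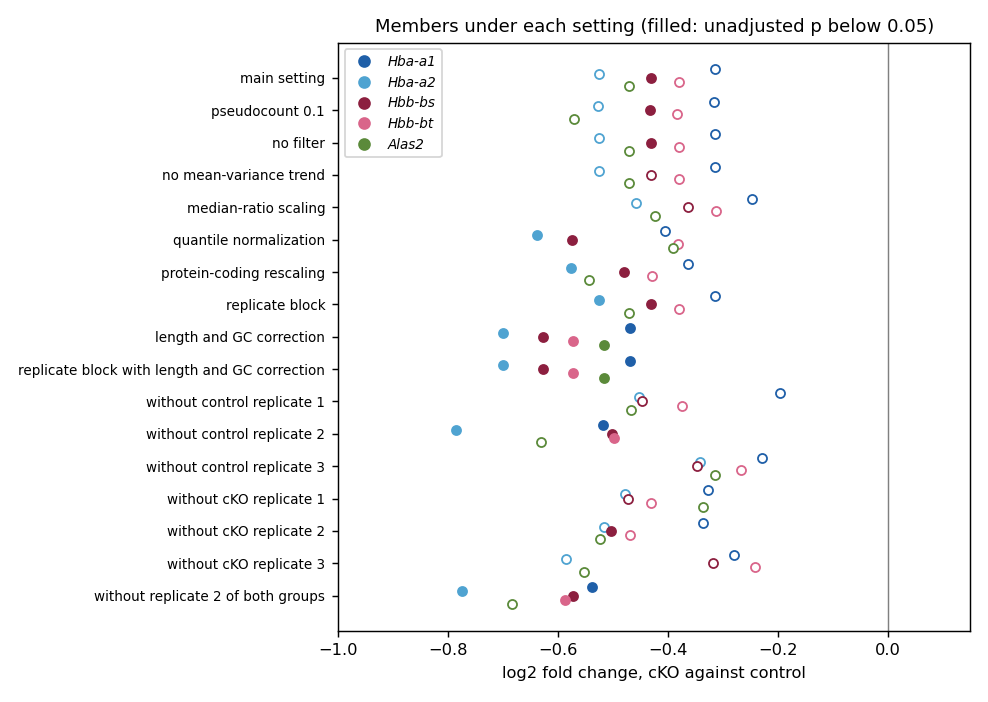
Log2 fold change (cKO against control, horizontal axis) of the 5 tested genes under the main setting and 16 alternatives. Every point is below 0, from -0.79 to -0.20. Filled points have an unadjusted p below 0.05 from limma, and all 5 genes are filled in both rows with the length and GC correction.

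The globin sum depends less than single genes on how reads were split between copies, although not wholly, since the copies differ in length. The control libraries held 1756, 1321 and 1972 TPM of globin, and the cKO libraries 1225, 1278 and 1157 TPM. This was between 0.117% and 0.199% of all TPM of a library, a small share of the RNA in every pool. The cKO mean of 1220 ± 60.8 TPM (SD, n = 3) was 27.5% below the control mean of 1683 ± 332 TPM (SD, n = 3), without overlap (p = 0.1 by two-sided exact permutation). With median-ratio scaling of the libraries the separation was lost (p = 0.4 by two-sided exact permutation), since control replicate 2 then had the lowest scaled sum, 1140, next to 1144 in cKO replicate 2. The unscaled spread differed as well, since the cKO libraries were close together and the control libraries were not, and control replicate 2 was the closest of them to the cKO. The sum of beta genes did not overlap between the groups (p = 0.1), and that of alpha genes did (p = 0.3, both two-sided exact permutation tests). In bulk tissue, fewer red cells and less globin RNA in each red cell cannot be told apart.

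The proportions among the chains varied over smaller ranges than their amount, to different degrees. The ratio of *Hbb-bs* to *Hbb-bt* was between 4.85 and 5.49 in the 6 libraries, a range of 1.13 times, whereas the globin sum had a range of 1.70 times. The ratio of *Hba-a2* to *Hba-a1* was between 1.91 and 2.77, a range of 1.45 times, and that of alpha to beta had a range of 1.504 times. Alpha over beta was 1.34, 0.928 and 1.28 in the control and 1.03, 1.02 and 1.40 in the cKO, with overlapping groups (p = 1.00 by two-sided exact permutation). The cKO mean of that ratio was 0.033 below the control mean, and the sign of this difference changed when single libraries were left out.

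Other red cell genes were read from 4 lists. The genes of the red cell membrane and skeleton had 7 of 18 members tested, with a median log2 fold change of -0.23 and 0 called by the criteria (0 with an unadjusted p below 0.05 from limma). The most abundant, *Aqp1*, *Slc2a1*, *Epb41* and *Dmtn*, also work in other cells. With the length and GC correction, *Aqp1*, a water channel, was called (log2 fold change -0.63, unadjusted p = 0.0249 from limma). All 15 genes of heme synthesis and iron supply were tested, with a median of -0.07, close to that of all genes. In that list 1 gene was called, *Slc11a2*, which encodes a transporter that moves iron across membranes. Its control libraries were at 22.4 to 24.3 TPM and its cKO libraries at 14.4 to 18.6 TPM (log2 fold change -0.49, unadjusted p = 0.0218 and adjusted p = 1.00 from limma). The criteria called 4.02% of all tested genes, 2.47% as lower, so counts of 0 or 1 in lists this short are not a result about them. The enzymes of heme synthesis that every cell uses were led by *Urod*, *Fech* and *Alas1* and were not called. Of the erythroid transcription factors and the erythropoietin receptor, 5 of 11 were tested (median -0.29, 0 called), led by *Ldb1*, *Bcl11a*, *Lmo2* and *Zfpm1*. With the same correction *Lmo2* was called (log2 fold change -0.43, unadjusted p = 0.0335 from limma). *Gata1*, the defining factor of the lineage, was at most 0.06 TPM and *Klf1* at most 0.42 TPM in any library. Of the genes of the red cell cytosol, 19 of 20 were in the table and 13 were tested (median -0.03, 0 called), led by *Prdx2*, *Bnip3l*, *Mkrn1* and *Bpgm*, all of which other tissues express too. The sum of this list was 730 TPM on average in control libraries and 844 TPM in cKO libraries, with overlap. *Bpgm*, which makes the red cell regulator of oxygen release, was at 50.7, 48.9 and 34.4 TPM in control libraries and at 59.5, 68.4 and 51.3 TPM in cKO libraries, so it was separated in the direction opposite to *Hbb-bs* (log2 fold change 0.42, unadjusted p = 0.0787 from limma). *Rhd*, of the membrane list, was also higher in all cKO libraries, at 1.78 to 2.26 TPM against 0.84 to 1.56 TPM (log2 fold change 0.47, unadjusted p = 0.107 from limma). Besides *Slc11a2*, other listed genes were lower in all cKO libraries, as *Hbb-bs* was. *Alas1* was at 19.2 to 26.7 against 29.4 to 32.8 TPM and *Lmo2* at 6.44 to 8.98 against 9.1 to 11.4 TPM. *Add2*, of the membrane list and below the filter, was at 0.34 to 0.66 against 0.79 to 1.21 TPM. Of all tested genes, 6.13% were separated as lower, and the share separated as higher is not given here.

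Several other erythroid genes at low levels had the order of *Slc4a1* and not that of the globins. *Hemgn*, an erythroid nuclear protein, was at 0.05, 0.40 and 0.07 TPM in the control and at 0.02, 0.48 and 0.07 TPM in the cKO. Replicate 2 of each group was above the other 4 libraries. *Ermap*, an erythroid membrane protein, was at 0.17, 0.35 and 0.12 TPM in the control and at 0.06, 0.38 and 0.05 TPM in the cKO, with the same 2 libraries on top. Of the 23 genes in the 4 lists with a mean above 0 and below 1 TPM, 10 (43.5%) had this pattern, among them *Slc4a1*, *Epb42*, *Rhag*, *Ermap*, *Gata1*, *Gfi1b*, *Hemgn* and *Trim10*. Of all genes in that range 16.2% did, and of those between 0.1 and 1 TPM 23.6%. Among genes of at least 1 TPM it was 8 of 40 in these lists and 28.8% of all tested genes. The pattern was noticed in these data and was not tested, and levels this low rest on few reads. The replicate 2 libraries also had the most genes above 0 (23203 in control and 23036 in cKO, against 20185 to 22895 in the others). For each 1000 TPM of globin, *Slc4a1* was at 1.37 and 1.09 TPM in the replicate 2 libraries of control and cKO and at 0.122 to 0.245 TPM in the other 4.

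**Figure D3:**
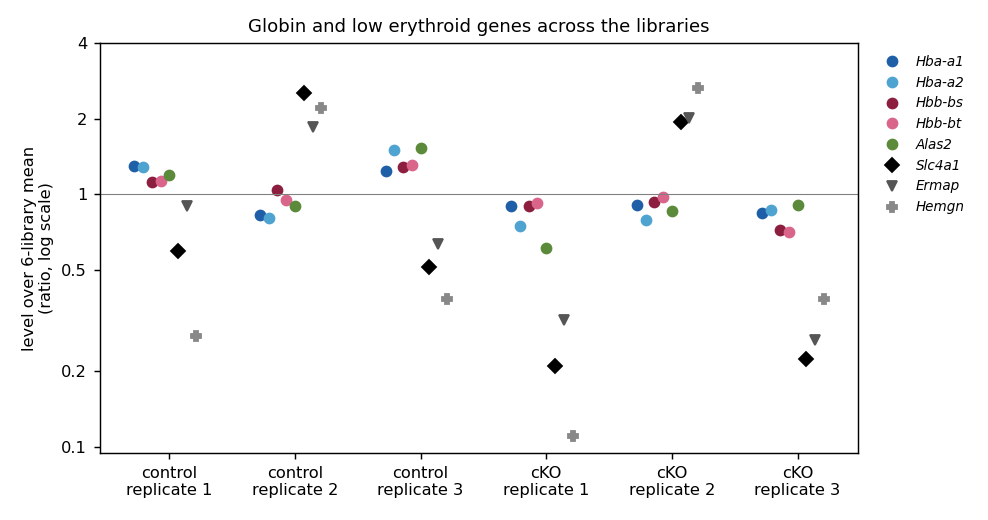
Level of each gene over its own mean of the 6 libraries (ratio, log axis), by library. The adult globins and Alas2 (circles) are highest in control replicates 1 and 3, and Slc4a1, Ermap and Hemgn (other markers) are highest in replicate 2 of both groups.

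Of the other cells of blood, the macrophages alone had their highest sums in the control libraries that were highest in globin. Neutrophil markers summed to 24.2, 29.8 and 15.7 TPM in the control and 31.8, 55.2 and 7.46 TPM in the cKO, led by *S100a9*, *S100a8*, *Retnlg* and *Ngp*, and the cKO replicate 2 library was highest while the cKO replicate 3 library was lowest. The platelet and megakaryocyte markers summed to 5.84 to 10.02 TPM, led by *Pf4*, *Itga2b*, *Gp1bb* and *Clec1b*. The lymphocyte markers summed to 3.94 to 8.12 TPM, led by *Cd3g*, *Trac*, *Ptprc* and *Cd4*, and *Cd3d* was listed at 0 throughout. Macrophage and monocyte markers, led by *Lyz2*, *C1qa*, *C1qb* and *C1qc*, summed to 87.6, 59.6 and 69.0 TPM in the control and 63.9, 60.2 and 60.5 TPM in the cKO, with control replicates 1 and 3 highest. In these 4 lists 0 of the 17 tested genes met the criteria (0 with an unadjusted p below 0.05 from limma), and the groups overlapped in each sum. Of all tested genes 4.02% met the criteria, so 0 of 17 is not a result about these cells.

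Among the markers of blood vessels, those of the endothelium had their highest sums in the same control libraries as the globins. All 12 of these markers were tested and all 12 had a negative log2 fold change, with a median of -0.48 against -0.07 for all genes, of which 60.3% were negative. The criteria called 4 of them as lower in cKO, as they did 2.47% of all tested genes: *Cdh5* (endothelial cadherin), *Flt1* (a VEGF receptor), *Tek* (the angiopoietin receptor) and *Erg* (an endothelial transcription factor), with log2 fold changes of -0.77, -0.63, -0.54 and -0.61, and with adjusted p of 1.00 from limma. With the length and GC correction that was used for the globins, 3 of these were called and *Flt1* was not (log2 fold change -0.42, unadjusted p = 0.0922 from limma). The most abundant, *Egfl7*, *Plvap* and *Pecam1*, were not called. Summed, the endothelial markers were 229, 166 and 226 TPM in the control and 143, 158 and 181 TPM in the cKO, and control replicates 1 and 3 were highest, although control replicate 2 lay within the cKO range. The ratio of the globin sum to the endothelial sum was 7.67, 7.94 and 8.73 in the control and 8.55, 8.11 and 6.40 in the cKO, and these overlapped (p = 0.8 by two-sided exact permutation). On the log2 scale, the difference of the globin sum was -0.45 by itself and -0.087 relative to the endothelial markers, a ratio chosen after seeing the data. Whether vessels account for the globin level was not tested. The mural cells that wrap vessels had 8 of 10 markers tested with a median of -0.35. In that list 1 gene was called, *Notch3*, with a log2 fold change of -0.73, which the length and GC correction reduced to -0.45 and ended the call (unadjusted p = 0.0541 from limma). The same correction called *Rgs5* in its place (log2 fold change -0.57, unadjusted p = 0.0227 from limma). The mural markers, led by *Acta2*, *Rgs5*, *Notch3* and *Cspg4*, summed to 179, 128 and 125 TPM in control libraries and to 112, 122 and 117 TPM in cKO libraries. These groups did not overlap (p = 0.1 by two-sided exact permutation), but control replicate 3, the highest in globin, was the lowest control.

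**Figure D4:**
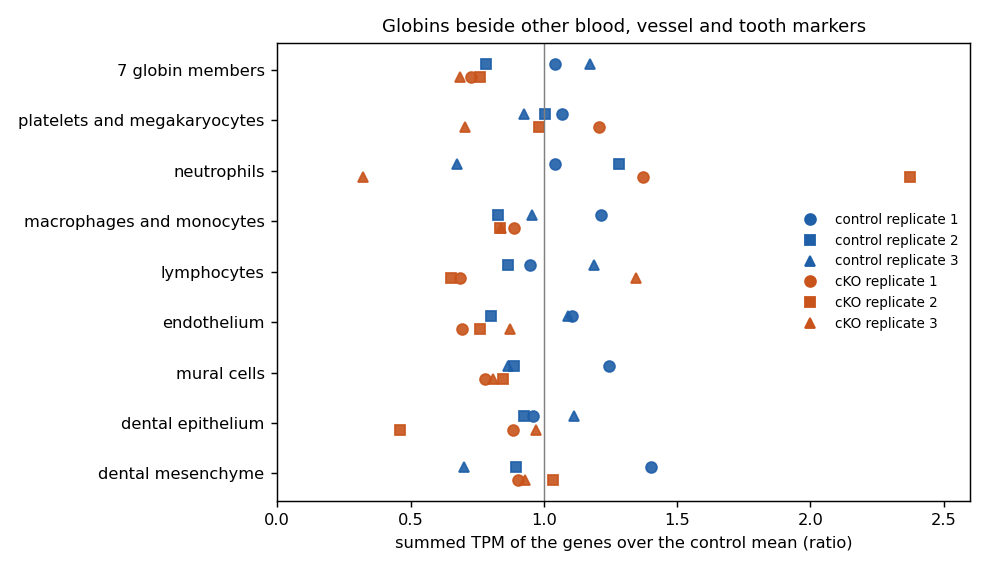
Summed TPM of the 7 globin genes and of 8 marker lists in each library, divided by the mean of the 3 control libraries (ratio, linear axis). The globin sums of the cKO libraries, 1157 to 1278 TPM, are to the left of all control libraries, the endothelial sums overlap at 166 and 181 TPM, and the neutrophil sums range most widely, from 7.46 to 55.2 TPM.

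The tissue itself was compared in the same way, beside the 4.02% of all tested genes that met the criteria. The dental epithelium list (12 of 12 tested, median log2 fold change -0.22, 0 called), led by *Amelx*, *Ambn*, *Enam* and *Krt5*, and the dental mesenchyme list (12 of 12 tested, median -0.01, 0 called), led by *Col1a1*, *Col1a2*, *Dspp* and *Vim*, overlapped between the groups in their sums. The epithelial sum of cKO replicate 2 stood apart, at 102274 TPM against 196952 TPM or more in the other libraries. *Ambn*, which encodes an enamel matrix protein, was at 31405, 32180 and 33061 TPM in control libraries and at 24646, 8562 and 26263 TPM in cKO libraries, without overlap (log2 fold change -0.86, unadjusted p = 0.0766 from limma). With the length and GC correction it was called (log2 fold change -1.01, unadjusted p = 0.0456 from limma). Control replicate 1, with the second highest globin sum, had the highest mesenchymal sum (7195 TPM), and control replicate 3, with the highest globin sum, had the lowest (3603 TPM). The genes that bind and clear free hemoglobin and heme (9 of 12 tested, median 0.05, 0 called) were led by the ferritin chains *Ftl1* and *Fth1*, with *Lrp1* and *Hmox1* next. *Hmox1*, the heme oxygenase that heme induces, was at 52.3, 33.5 and 41.9 TPM in the control and at 30.1, 24.0 and 40.4 TPM in the cKO, with overlap (log2 fold change -0.43, unadjusted p = 0.125 from limma). The correction called it as well (log2 fold change -0.51, unadjusted p = 0.0379 from limma). The receptor *Cd163* was at most 0.13 TPM.

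The genes most like the adult globins over the 6 libraries were named by Pearson's r with the mean log2(TPM + 1) of the 4 adult globins, as a description. The 10 highest outside the 9 genes were *Mcrip2*, *G6pc3*, *Prss22*, *Gm27533*, *Isyna1*, *Ccdc91*, *2010001A14Rik*, *Mrpl38*, *Gm14760* and *Gm26130*, with r from 0.93 to 0.97. None of them is in the red cell lists, whose closest gene outside the 9 was *Alad*, an enzyme of heme synthesis, with r = 0.88 (rank 40), before *Ube2l6* with r = 0.81 (rank 96) and *Steap3* with r = 0.79 (rank 112). *Gm27533* and *Gm26130*, both small RNA genes, were listed at 0 in every library except control replicates 1 and 3. *Alas2* had r = 0.85. The 6 libraries are those of the whole comparison, and 13714 genes were ranked.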

How the data were processed

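Per the methods, trimming used SeqPrep and Sickle, alignment HISAT2 and abundance RSEM. The submitters' processing notes name StringTie in place of RSEM. The genome build is not given in the sources used here. The authors deposited TPM (column sums of 983952 to 993946), although FPKM is the unit named in the methods. Depth is lost in TPM. Of the gene identifiers, 99.5% are in GENCODE M21 (GRCm38).

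From the deposited TPM, log2(TPM + 1) was taken for the 13719 genes whose mean reached 1 TPM and fitted with limma (version 3.58.1, R 4.3.3; eBayes with a mean-variance trend, no block). This scale understates the change of low genes. The Benjamini-Hochberg adjustment of p covers every tested gene. Sums, ratios and single genes were compared by two-sided exact permutation of 3 against 3 libraries. The length and GC correction fits natural splines with 4 degrees of freedom for each property. On simulated data for cKO against control, with 13707 genes, 31% of genes changed by 1 and 91% of genes changed by 2 on the log2 scale were recovered at an adjusted p below 0.05. Of the 13707 genes, 100 had been changed by 1 and another 100 by 2 in the same data, and 11 false calls were made beside the recovered ones. The changed genes were drawn only from those above a set level, so these shares do not cover low genes such as *Alas2*. With the replicate block, 15% and 90% were recovered, with 7 false calls.

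The 9 genes and the 14 lists were chosen with earlier results of these data known. Some listed genes are not reported here. Named are the 9 genes, the up to 4 most abundant genes of each list and those called, and the 10 genes most like the adult globins. *Wnt10a* and *Krt14* are named for the check of labels and tissue, and the list of other globins is named in full, with *Ngb*, *Hbb-bh2* and *Hbb-bh0*. Genes named for the replicate 2 pattern, and *Klf1*, *Cd163*, *Cd3d*, *Rhd*, *Add2*, *Alad*, *Ube2l6* and *Steap3*, were chosen after their values were seen. *Ahsp*, in the list of cytosolic genes, is not a name in the table. No promoter sequence was used for *Hbb-bh1* and *Slc4a1*.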

Additional observations from a re-analysis of the deposited data

How the results depend on the processing

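All 5 tested genes kept a negative log2 fold change in all 16 alternatives, from -0.79 to -0.20, and none had an adjusted p below 0.05 from limma in any (lowest 0.507). *Hbb-bs* kept an unadjusted p below 0.05 from limma in 10 of 16. It lost this in the single-library omissions given in the results and under other settings. Its unadjusted p from limma was 0.149 with median-ratio scaling and 0.0606 without the mean-variance trend. The number of the 9 genes under the criteria was 1, and became 0 with median-ratio scaling or without the trend, 2 with quantile normalization, with rescaling to the protein-coding total (*Amelx* and *Ambn* left out), or with the replicate block, 5 with the length and GC correction with or without the block, 4 without replicate 2 of both groups, and 0 to 4 when single libraries were left out. Over the lists without the 9 genes it was 6, and became 9 with the length and GC correction, 3 without the filter, 2 with quantile normalization, 16 with the block, 14 with the block and the correction, 2 without replicate 2 of both groups, and 0 to 12 when single libraries were left out.

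Over all genes, the criteria called 552 (213 higher, 339 lower), and 940 without the filter, 1315 with the block, 942 with the block and the correction, 215 without replicate 2 of both groups and 204 to 1159 without single libraries. Quantile normalization gave 324 higher and 324 lower, and protein-coding rescaling 104 higher and 651 lower. Without control replicate 3 the median over all genes shifted by -0.11 from that with all libraries. Genes with an adjusted p below 0.05 numbered 2, and 4 with a pseudocount of 0.1, with quantile normalization or with the block, 1 without the filter or with the correction, with or without the block, 0 with protein-coding rescaling (755 with an unadjusted p below 0.05) and 2 to 9 without single libraries. The globin sum kept its sign in all 12 alternatives, from -0.64 to -0.087, the latter relative to endothelial markers, but its groups overlapped with median-ratio scaling (p = 0.4 by exact permutation). Leaving out replicate 2 of both groups and the endothelial ratio were added after seeing the data. The cause of these differences was not tested. Count-based tests were not run, since the values are TPM.

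Across genes, the residuals around each group mean correlated at -0.08, 0.29 and 0.40 between libraries of equal number. Of the 6 libraries, 4 correlated best with their own number. The methods of the study name 3 pairs of replicates, but the labels do not say whether equal numbers form a pair. The main fit took no pairs, and these correlations do not settle whether it should have. With the replicate block, *Hba-a2* had an unadjusted p of 0.0282 from limma (adjusted p = 0.507), and the globin sum was lower in cKO in 3 of 3 numbers (exact sign-flip permutation, p = 0.25, the smallest p possible).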

Other observations

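The table also lists globins outside the 9 genes. *Cygb*, cytoglobin of fibroblast-like cells, was at 32.9, 22.0 and 45.1 TPM in the control and at 20.04, 14.7 and 40.3 TPM in the cKO, with overlap between the groups, and replicate 3 was highest in each. *Hbq1b*, a theta globin gene of the alpha cluster, was at 0.44 to 2.37 TPM and *Hbq1a* at 0 to 0.78 TPM. *Hbq1b* was lowest in cKO replicate 3, which also had the lowest globin sum, and highest in cKO replicate 2. *Mb*, the myoglobin of muscle, was at 0.15 to 0.52 TPM, and *Ngb*, neuroglobin, at 0.04 to 0.18 TPM. *Hbb-bh2* and *Hbb-bh0* were listed at 0 in all 6 libraries.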
